A study of Danio rerio with 11 samples.

Results

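Tails of wildtype zebrafish embryos from 2 mutant lines, 23095 and 36433, were compared across all expressed genes. The members were chosen by their labels alone. They are the 2 libraries of line 23095 wildtypes (R1 and R2) and the 3 libraries of line 36433 wildtypes (R1, R2 and R3), 5 of the 11 libraries of the series. Each library was made from total RNA of a pool of 5 tails, taken posterior to the yolk sac at 24 hours post fertilisation. The other 6 libraries are lsd1 mutant tails of the same age, 3 pools of line 23095 (R1, R2 and R4) and 3 of line 36433. The wildtypes are siblings of these mutants, so each wildtype group carries the genetic background of its line. The labels used here do not give the lesion in either line, the parental strain, whether siblings were heterozygous, or whether pools came from separate clutches. P-values therefore measure only the spread between these pools.

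The zebrafish tail grows from a tailbud of dividing progenitor cells. Cells leave it into the presomitic mesoderm, where segmentation genes of the Notch, Fgf and Wnt pathways cycle and mesp genes mark the next boundary, and then form somites that differentiate into muscle fibres filled with sarcomeres. A tail further along this path carries more sarcomere RNA and less tailbud RNA. Laboratory zebrafish stocks are not fully inbred. In pooled bulk tissue, fewer cells of a type and less RNA per cell cannot be told apart, and this holds for every result on a cell type here.

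The 5 wildtype libraries held between 14785707 and 17195875 counts. In the 23095 wildtypes the 10 most abundant genes took 17.4% to 19.2% of counts, against 13.5% to 14.7% in the 36433 wildtypes. The libraries of a line did not all lie closer to each other than to the other line. The median absolute log2 difference per gene was 0.234 between the 23095 wildtypes and 0.228 between 36433 wildtypes R2 and R3, but 0.362 and 0.359 between 36433 wildtype R1 and these 2 libraries of its own line. 36433 wildtype R1 differed by 0.291 from 23095 wildtype R2, less than from either wildtype of its own line. Values without this library are given beside several list results, and for some of these lists another library moved the median more. The tissue label was checked against position markers. HOXC13, a gene of the most posterior body, was present at 25.5 to 44.0 CPM (counts scaled to library size) in all 5 wildtypes, whereas the forebrain gene SIX3 lay between 0.13 and 1.08 CPM and OTX2, of forebrain and midbrain, between 1.07 and 2.15 CPM.

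KDM1A (kdm1a, called lsd1 in the labels) encodes the histone demethylase mutated in both lines. It stood at 123.7 and 142.2 CPM in the 23095 wildtypes and at 161.7, 155.0 and 135.3 CPM in the 36433 wildtypes. The 2 groups overlapped. The log2 fold change, given throughout as line 23095 over line 36433, was -0.18 ± 0.16 (SE), with an adjusted p of 0.659 in edgeR's quasi-likelihood test. Among mutants it was 129.7, 170.4 and 130.2 CPM in line 23095 and 34.1 to 36.8 CPM in line 36433 (log2 fold change 2.02). The wildtype minus mutant line difference was called for this gene (-2.20, adjusted p 0.00407), but not without 23095 wildtype R1 (-2.11, adjusted p 0.12).

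Between the wildtypes, 82 of 20886 tested genes were called at an adjusted p under 0.05 (0.393%), of which 53 were higher in line 23095 (0.254%) and 29 were lower (0.139%). At an unadjusted p under 0.05 there were 2858 genes. In all 82 called genes the 5 values did not overlap between lines, which was also true of 31.0% of all tested genes (16.4% higher and 14.6% lower in line 23095). The count depended on single libraries. It was 21 without 23095 wildtype R1, 25 without 23095 wildtype R2, 26 without 36433 wildtype R2 and 67 without 36433 wildtype R3, but 301 without 36433 wildtype R1 (172 higher and 129 lower; 1.45% of 20782 genes), and 76 of the 82 were among those 301. DESeq2 on the same counts called 548 genes, including all 82. The authors' deposited table for the same comparison also held 548 genes with an adjusted p under 0.05, 334 higher and 214 lower, and all 82 were among them with the same sign. These totals equal those of the DESeq2 run, so the table is not a separate check.

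The mutant libraries share no pool with the wildtypes and give a line difference of each gene in other pools, although all 4 groups share 1 estimate of spread. The mutants also carry the lsd1 mutation of their line. In the mutant comparison, the background and the mutations of the 2 lines therefore cannot be told apart. Between mutants of the 2 lines 235 genes were called (1.13%), 102 higher (0.488%) and 133 lower (0.637%) in line 23095, and in 20.6% of tested genes the 6 mutant values did not overlap between lines. The 82 wildtype calls are given here by size, and since the call itself selected large wildtype values, sizes in wildtypes and mutants are set side by side only as a description. Of the 35 with a fitted difference of 8-fold or more (3 on the log2 scale), all 35 had the same sign in mutants, all 35 did not overlap between mutant lines in that direction, and 29 were called there. Their median size was 5.06 on the log2 scale in wildtypes and 4.67 in mutants. For genes with no count in one line a fitted fold depends on the prior count, and with those genes placed at a floor of 3 counts per library the medians were 4.01 and 3.65. Of the 47 smaller differences, 41 had the same sign in mutants, 25 did not overlap in that direction and 9 were called there, with medians of 1.47 in wildtypes and 0.57 in mutants. The test of the difference itself, wildtype minus mutant line difference, called 2 of all tested genes (0.00958%) and none of the 82 (edgeR, lowest adjusted p 0.222). In that edgeR test 29 of the 47 smaller and 3 of the 35 larger differences had an unadjusted p under 0.05, beside 7.59% of all tested genes. Selection by the wildtype call favours such values. DESeq2 called 7 of the 82 in that test and a newer edgeR quasi-likelihood method none. It could not call the 7 genes that had no count in one line in both genotypes. None of the 47 smaller differences stayed called in all 5 fits that left out 1 wildtype library, whereas 12 of the 35 larger ones did.

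**Figure D1:**
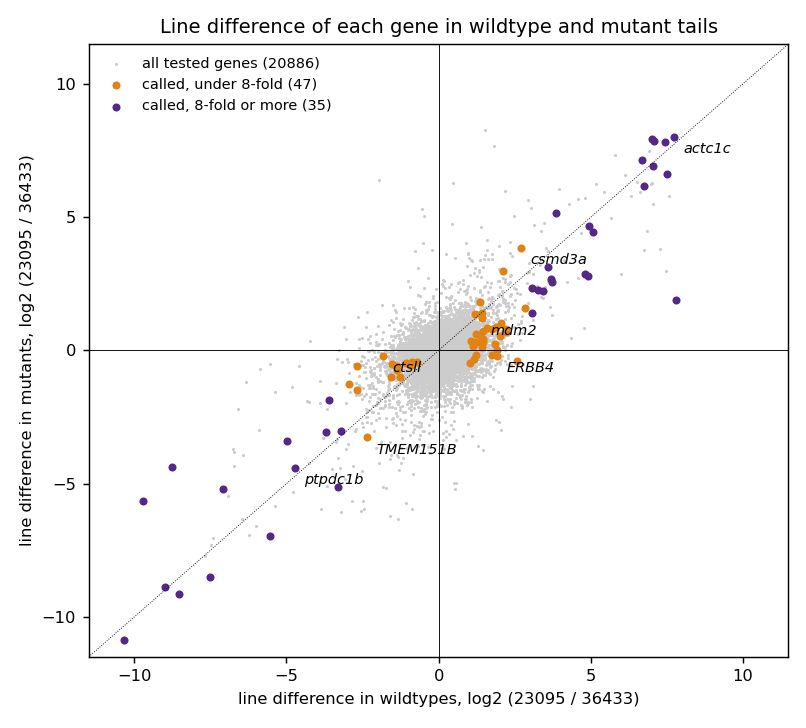
Each point is 1 of 20886 tested genes, placed by its log2 fold change (line 23095 over line 36433) between wildtypes on the horizontal axis and between mutants on the vertical axis. The dotted line marks equal values. The 35 larger calls (purple) lie in the quadrants of equal sign, while the 47 smaller calls (orange) have a median of 1.47 in wildtypes and 0.57 in mutants. Fitted folds beyond about 6 on either axis include genes with no count in one line and are not bounds.

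Among called genes with a name and counts in every wildtype library, the largest fitted difference was in a muscle actin. actc1c, one of several actin genes of the cardiac alpha type in zebrafish, stood at 535.2 and 232.7 CPM in the 23095 wildtypes and at 1.92, 1.75 and 1.66 CPM in the 36433 wildtypes. The lines did not overlap, and the 36433 wildtypes hardly differed from each other. The log2 fold change was 7.75 ± 0.46 (SE), with an adjusted p of 2.74e-06. The mutants had the same pattern, with 352.0, 487.9 and 180.8 CPM in line 23095 and 1.25 to 1.45 CPM in line 36433. A second gene of this type, ACTC1, was also higher in line 23095. Its values were 179.1 and 174.5 CPM against 60.6, 84.9 and 86.0 CPM in wildtypes (log2 fold change 1.197, adjusted p 0.0457), and 142.7 to 218.4 against 52.4 to 84.7 CPM in mutants (1.35). Another, actc1b, was at 10920 and 9267 CPM against 5438, 5243 and 7603 CPM and was not called (0.73 ± 0.30, adjusted p 0.309). The call of actc1c held without any single wildtype library (highest adjusted p 0.00012), whereas that of ACTC1 was lost without either 23095 wildtype and without 36433 wildtype R2 or R3 (up to 0.276). Actin genes are close copies of each other, so how reads were divided among them is uncertain.

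Other named genes differed in the same direction in both genotypes, by amounts that were not always alike. SLC24A4, a potassium-dependent sodium and calcium exchanger, was at 6.25 and 4.40 CPM in the 23095 wildtypes and at 0.064 to 0.32 CPM in the 36433 wildtypes (log2 fold change 5.06, adjusted p 0.00156). strc, which encodes stereocilin of the hair bundles of the inner ear, was at 7.13 and 8.81 CPM against 0.34 to 0.96 CPM (3.70, adjusted p 0.00606). Both were also called between mutants, at 4.44 and 2.69 on the log2 scale, and both stayed called without any single wildtype library. csmd3a encodes a large membrane protein of the CUB and sushi domain family. The 2 wildtype pools of line 23095 differed from each other, with 7.25 CPM in R1 and 35.9 CPM in R2, while the 36433 wildtypes held 2.42 to 3.77 CPM. The log2 fold change was 2.72 ± 0.49 (adjusted p 0.0383) in wildtypes and 3.84 in mutants, where all 3 pools of line 23095 stood near R2, at 35.8 to 40.7 CPM. The wildtype call of csmd3a was lost without 23095 wildtype R2 and without 36433 wildtype R2 or R3 (adjusted p up to 0.266).

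mdm2 encodes the ubiquitin ligase that marks p53 for degradation and is itself a p53 target. It stood at 91.9 and 57.5 CPM in the 23095 wildtypes and at 27.43, 27.02 and 28.97 CPM in the 36433 wildtypes. The lines were well apart, and the 36433 wildtypes hardly varied. The log2 fold change was 1.43 ± 0.19 (adjusted p 0.00606) in wildtypes and 1.21 (adjusted p 0.00537) in mutants, which held 72.3 to 87.2 against 30.4 to 37.6 CPM. Without 23095 wildtype R1 the wildtype call was lost (adjusted p 0.074). No other of the 27 tested p53 targets was called by edgeR, 8 of the 27 had an unadjusted p under 0.05, and DESeq2 called 3 higher and 1 lower. The list's median was 0.13 in wildtypes (0.10 to 0.26 without any single library) and 0.20 in mutants. bbc3, a p53 target that promotes apoptosis, was at 6.88 and 3.73 CPM against 1.47, 2.62 and 1.86 CPM (1.42 ± 0.40, adjusted p 0.135), and sesn3, a stress-induced regulator of growth signalling, at 93.8 and 83.5 CPM against 43.96, 52.96 and 63.82 CPM (0.73 ± 0.20, adjusted p 0.128).

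Fewer named genes were lower in line 23095 by a large amount. ptpdc1b, a predicted tyrosine phosphatase, was at 0.76 and 0.27 CPM in the 23095 wildtypes and at 20.7, 7.53 and 14.0 CPM in the 36433 wildtypes. The log2 fold change was -4.74 ± 0.54 (adjusted p 0.00203), and in mutants it was -4.40. TMEM151B, a transmembrane protein gene, was at 0.76 and 0.75 CPM against 3.53, 4.50 and 3.58 CPM (-2.35, adjusted p 0.00853) and at a log2 fold change of -3.26 between mutants. gad3, of the glutamate decarboxylase family that makes the transmitter GABA, was at 8.39 and 7.72 CPM against 19.0, 18.2 and 21.7 CPM (-1.28, adjusted p 0.032) and was also lower between mutants (adjusted p 0.0294). Of these 9 genes, from actc1c to gad3 without actc1b, bbc3 and sesn3, 4 lost the call without 23095 wildtype R1 (adjusted p 0.074 to 0.276), 4 without 23095 wildtype R2 (0.0973 to 0.266), 3 without 36433 wildtype R2 (0.0797 to 0.163) and 3 without 36433 wildtype R3 (0.0604 to 0.0665). All 9 remained called without 36433 wildtype R1.

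**Figure D2:**
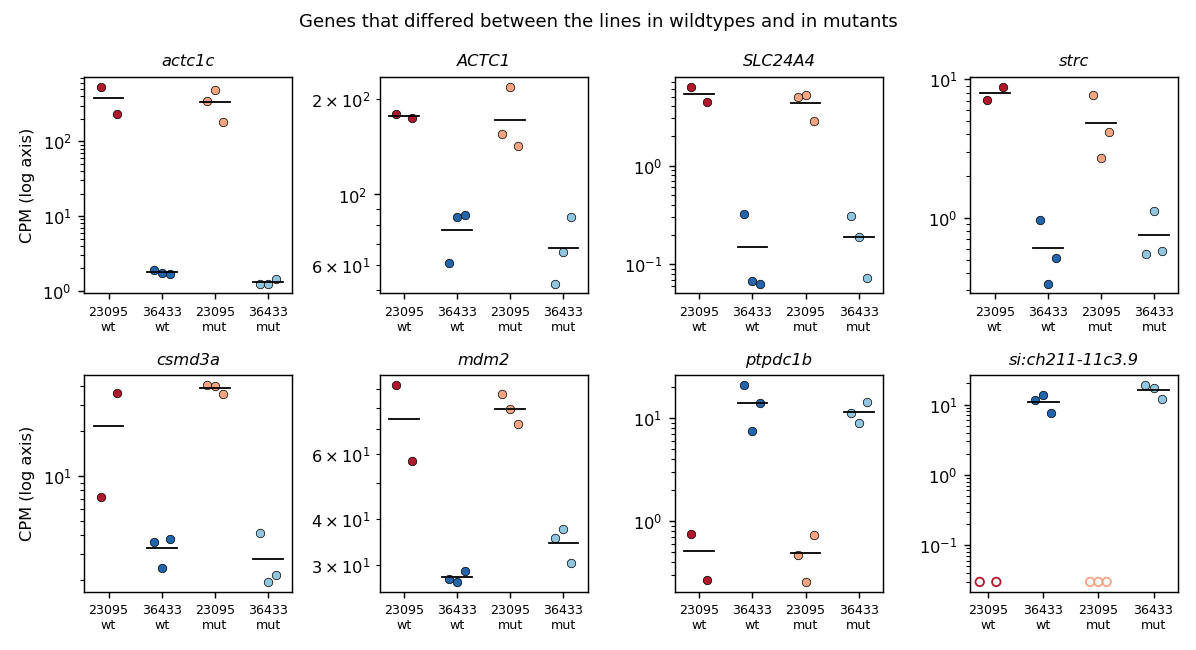
CPM of 8 genes in each library, on logarithmic axes, for the wildtype (wt) and mutant (mut) groups of both lines. Filled points are single libraries, black bars are group means, and open points mark libraries with no count. The lines separate in wildtypes and again in mutants for each gene shown, and csmd3a is the one in which a 23095 wildtype library, R1 at 7.25 CPM, lies far from the other libraries of its line.

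Several called genes had no count in any wildtype of one line. si:ch211-11c3.9, a gene named after its genomic clone, had 120 to 205 counts in the 36433 wildtypes and 168 to 276 counts in the 36433 mutants, but 0 counts in all 5 libraries of line 23095. Against a floor of 3 counts per library it was at least 56.0-fold lower in the 23095 wildtypes. Genes with neighbouring numbers of the same clone name, si:ch211-11c3.11 and si:ch211-11c3.12, were also at 0 in all 5 libraries of line 23095 and at least 16.1-fold and 7.86-fold lower in its wildtypes. si:dkey-71b5.3 was likewise at 0 in all libraries of line 23095 (at least 21.96-fold lower). si:dkey-93m18.6 had 0 counts in the 23095 wildtypes (at least 18.9-fold lower) and 4 counts over the 23095 mutants. The files used here do not say whether a sequence is missing from the genome of line 23095 or is present and not transcribed.

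In the other direction, ela2l, an elastase-like protease gene, had 21 to 26 counts in the 23095 wildtypes and 0 in all 6 libraries of line 36433 (at least 7.91-fold higher). si:dkey-90a24.1 had 13 to 15 counts against 0 in those 6 libraries (at least 4.70-fold higher), and the bitter taste receptor gene tas2r200.1 was at 1.198 and 0.542 CPM against 0 in those 6 libraries. The call of tas2r200.1 was lost without either 23095 wildtype and without 36433 wildtype R2 or R3 (adjusted p up to 0.308). si:ch73-304f21.2 had 21 to 37 counts against 0 in the 36433 wildtypes (at least 9.81-fold higher), but 27 counts over the 36433 mutants, and was not called between mutants (adjusted p 0.176). The pair si:ch73-65n21.1 and si:ch73-65n21.2, again of 1 clone name, was high in line 23095, at 61.9 and 69.9 CPM for the first and 95.3 and 95.9 CPM for the second, and at no more than 1.41 CPM in any 36433 wildtype. Of 10 of these genes (all from si:ch211-11c3.9 to si:ch73-65n21.2 other than tas2r200.1), 6 lost the call without 23095 wildtype R1 (adjusted p 0.0553 to 0.18), 6 without 23095 wildtype R2 (0.0692 to 0.159), 5 without 36433 wildtype R2 (0.0797 to 0.134), 2 without 36433 wildtype R3 (0.0597 and 0.0614) and none without 36433 wildtype R1.

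In all, 35 of the 82 called genes had a clone name or no name. A further 8 carried the symbol Metazoa_SRP, an annotation of copies related to the RNA of the signal recognition particle, which targets proteins to the endoplasmic reticulum. Of 61 tested identifiers with that symbol, 5 were higher and 3 lower in line 23095. The lower copy with the largest level, ENSDARG00000111044, stood at 0.50 and 0.81 CPM against 59.0, 104.2 and 108.2 CPM in wildtypes, and its mutant means were 2.05 ± 0.79 and 79.5 ± 9.5 CPM (SD, n = 3 each). The higher copy ENSDARG00000115036 stood at 113.7 and 140.5 against 38.9, 33.5 and 53.6 CPM in wildtypes. Reads from such copies can be shared, so the level of any single one is uncertain. Between 1 and 4 of the 8 lost the call when 23095 wildtype R1, 23095 wildtype R2, 36433 wildtype R2 or 36433 wildtype R3 was left out (adjusted p 0.0727 to 0.227), and none without 36433 wildtype R1.

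Among the smaller differences were DOK7 and ERBB4, and MBNL3, cacng6b, svilb and ank3b, the last 4 picked after their values were seen, and the 6 stand for no group. DOK7, the adaptor that activates the receptor kinase MuSK at the neuromuscular synapse, was at 22.1 and 21.6 CPM in the 23095 wildtypes and at 7.24, 6.79 and 9.59 CPM in the 36433 wildtypes. The log2 fold change was 1.47 ± 0.20 (adjusted p 0.0071), and in mutants it was 0.71 (adjusted p 0.093). ERBB4, a receptor kinase for neuregulins, was at 37.0 and 34.9 CPM against 9.04, 5.38 and 13.9 CPM (1.93 ± 0.35, adjusted p 0.0383). The mutants of the 2 lines overlapped for ERBB4, at 7.67 to 16.3 and 11.2 to 17.1 CPM (-0.21). The symbol ERBB4 is shared by 3 identifiers, and no other of them was among the calls. MBNL3, of the muscleblind family of splicing regulators, was at 33.5 and 31.8 CPM against 14.6, 8.87 and 13.2 CPM (1.42, adjusted p 0.00951). cacng6b, a subunit of voltage-gated calcium channels, was at 20.9 and 16.0 CPM against 9.61, 5.91 and 9.02 CPM (1.17, adjusted p 0.0398). In mutants their log2 fold changes were 0.15 and -0.34, and neither was called there. svilb, which encodes the actin-binding protein supervillin, was at 15.1 and 14.5 CPM against 6.408, 4.906 and 4.796 CPM (1.46, adjusted p 0.0204). ank3b, an ankyrin that anchors membrane proteins to spectrin, was at 45.0 and 38.7 CPM against 23.0, 16.6 and 21.8 CPM (1.03, adjusted p 0.0437), and the mutants had the opposite sign (-0.46, adjusted p 0.273). All 6 of these genes lost the call without 23095 wildtype R1 (adjusted p 0.074 to 0.38) and without 23095 wildtype R2 (0.058 to 0.128), 4 lost it without 36433 wildtype R2 (0.107 to 0.167) and 3 without 36433 wildtype R3 (0.0546 to 0.0712), and all 6 remained called without 36433 wildtype R1.

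Genes of sterol and lipid metabolism were among the other calls. SQLE, squalene epoxidase of cholesterol synthesis, was at 4.42 and 7.39 CPM in the 23095 wildtypes and at 15.5, 20.6 and 15.5 CPM in the 36433 wildtypes (-1.54 ± 0.29, adjusted p 0.0398). CYP27A1, a mitochondrial sterol hydroxylase of bile acid synthesis, was called higher under 2 identifiers. The first stood at 7.38 and 14.2 against 2.24, 2.29 and 2.43 CPM (2.21, adjusted p 0.0255) and the second at 1.77 and 5.01 against 0.20 to 0.45 CPM (3.44, adjusted p 0.0374). They share a symbol, so the split of reads between them is uncertain. Of the 37 tested genes of retinoid, lipid and xenobiotic metabolism these 3 were the calls, and the list's median was -0.07, and between -0.19 and 0.02 without any single library. Further named calls had mixed roles, and not all of them are given here. LOXL4, of the lysyl oxidases that cross-link collagen, was at 5.55 and 14.6 CPM against 1.79, 3.29 and 2.17 CPM (2.06, adjusted p 0.0398). npas2, a paralogue of the circadian regulator clock, was at 7.57 and 7.72 CPM against 2.12, 1.21 and 2.75 CPM (1.91, adjusted p 0.0394) and overlapped between lines in mutants (0.03). Lower in line 23095 were ctsll, a cathepsin L-like protease gene, at 16.5 and 18.5 against 45.4, 55.0 and 86.0 CPM (-1.83, adjusted p 0.0219), and ANO1, a calcium-activated chloride channel, at 7.76 and 6.71 against 17.3, 19.2 and 19.4 CPM (-1.36, adjusted p 0.00853). ovol1a, a zinc finger regulator of epithelial differentiation, was at 13.4 and 9.55 against 21.7, 38.2 and 28.2 CPM (-1.35, adjusted p 0.0383). misp, a protein of the mitotic spindle and cell cortex, nlrc8 and the lipid kinase gene pi4kab were called higher at 1.86, 1.77 and 1.75. Of these 11 identifiers of lipid, matrix, clock and other genes, 8 lost the call without 23095 wildtype R1 (adjusted p 0.074 to 0.424), all 11 without 23095 wildtype R2 (0.0877 to 0.291), 10 without 36433 wildtype R2 (0.0535 to 0.183), 8 without 36433 wildtype R3 (0.0557 to 0.0909) and 1 without 36433 wildtype R1 (0.0524).

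**Figure D3:**
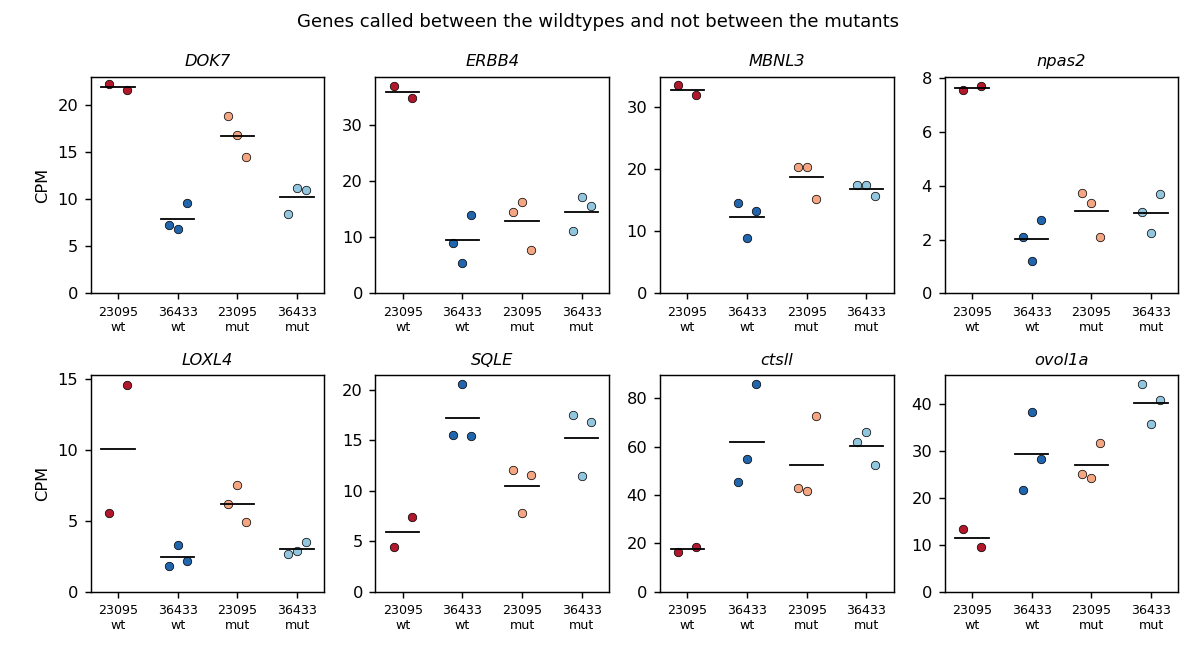
CPM of 8 genes in each library, on linear axes that start at 0, for the wildtype (wt) and mutant (mut) groups of both lines. Points are libraries and black bars are group means. The wildtypes of the lines do not overlap in any of the 8, while ERBB4, MBNL3, npas2, SQLE and ctsll overlap between the mutants.

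The genes of muscle maturation stood higher in the 23095 wildtypes as a group. Of 94 tested genes of the sarcomere and its membranes, 90 had a positive log2 fold change, 66 did not overlap in that direction and 1 did in the other, against 16.4% and 14.6% of all tested genes. The list's median was 0.70, beside -0.02 over all tested genes. No single member was called by edgeR (lowest adjusted p 0.0504), 53 had an unadjusted p under 0.05, and DESeq2 called 23 higher. In mutants the median was -0.06, with 10 members higher and 7 lower without overlap, beside 9.79% and 10.8% of all tested genes.

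TTN, the giant spring protein titin, occurs under 2 identifiers. The first was at 44810 and 41400 CPM in the 23095 wildtypes and at 29320, 12260 and 18010 CPM in the 36433 wildtypes (1.12 ± 0.29, adjusted p 0.111), and the second had nearly the same values and fold. JPH1, which holds the muscle plasma membrane and calcium store together, was at 39.6 and 28.7 CPM against 16.6, 7.06 and 7.04 CPM under one identifier (1.74 ± 0.34, adjusted p 0.0504). CACNA1S, the voltage sensor of muscle contraction, was at 89.95 and 61.66 CPM against 24.8, 25.3 and 37.2 CPM (1.38 ± 0.29, adjusted p 0.0623). In each of these genes every 23095 wildtype lay above every 36433 wildtype. Within line 36433, R1 was the nearest to line 23095 for TTN and JPH1 and R3 for CACNA1S.

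Without 36433 wildtype R1, 11 of the 94 muscle genes were called higher in line 23095 and none lower, beside 1.45% of all tested genes called in either direction. They included both TTN identifiers (1.51 and 1.56), both RYR1 identifiers, which encode the calcium release channel of the muscle store (1.17 and 1.45), obscnb, an obscurin of the sarcomere (1.31), smyhc2, a slow muscle myosin heavy chain (0.99), and MYOM1 of the M-band (0.97). Calls of members of this list are given for that omission alone. Over all genes the number of calls rose without that library and fell without each other wildtype library. The list's median was 0.68 without 36433 wildtype R1 and between 0.54 and 0.90 without any other single library. The summed level of the list was 194100 and 172600 CPM in the 23095 wildtypes and 114700, 71010 and 106500 CPM in the 36433 wildtypes. Among mutants it ranged from 88390 to 128400 CPM in line 23095 and from 103700 to 117900 CPM in line 36433, and so did not separate the lines. The most abundant genes weigh most in these sums. The TTN identifiers alone were at 44810 and 43140 CPM in 23095 wildtype R1, and at 12260 and 11400 CPM in 36433 wildtype R2.

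The genes of the tailbud and presomitic mesoderm lay the other way. Of 40 tested members 34 had a fold change that was not positive. Without overlap 19 were lower in the 23095 wildtypes and 2 were higher (14.6% and 16.4% of all tested genes), and the median was -0.68. edgeR called none, 17 had an unadjusted p under 0.05 (lowest adjusted p 0.0534), and DESeq2 called 8 lower and 1 higher. mespaa, which marks the forming somite boundary, was at 0.25 and 0.61 CPM in the 23095 wildtypes and at 2.499, 2.151 and 1.599 CPM in the 36433 wildtypes (-2.26 ± 0.46, adjusted p 0.0534). pcdh8, the protocadherin that separates cells at that boundary, was at 12.6 and 40.7 CPM against 85.9, 88.9 and 59.4 CPM (-1.55 ± 0.37, adjusted p 0.0923). For both genes the lines did not overlap, and 23095 wildtype R1 was the lowest library.

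FGF4 went against the list, at 20.9 and 23.4 CPM against 13.3, 9.81 and 14.3 CPM (0.83 ± 0.20, adjusted p 0.0904). In mutants the median of the tailbud list was 0.16, with 2 members higher and 3 lower without overlap, beside 9.79% and 10.8% of all tested genes. There pcdh8 was at 75.5 to 116.5 CPM in line 23095 and 78.3 to 86.6 CPM in line 36433. Without 23095 wildtype R1 the median in wildtypes was -0.46, and without 23095 wildtype R2 it was -0.84. The early somite and myoblast genes, which lie between these stages, had a median of 0.02. Without overlap 5 of 27 members were higher and 5 lower, beside 16.4% and 14.6% of all tested genes. The list's median took either sign without single libraries (-0.14 without 23095 wildtype R2, 0.16 without 36433 wildtype R1). MEOX1, a homeobox gene of early somites, was at 34.8 and 61.7 CPM against 66.0, 98.2 and 90.5 CPM (-0.82 ± 0.25, adjusted p 0.167), and MYMK, the membrane activator of myoblast fusion, at 48.4 and 64.6 CPM against 98.69, 81.79 and 70.16 CPM (-0.57 ± 0.19, adjusted p 0.209). EYA4, of the same list, went the other way without overlap, at 51.8 and 54.7 CPM against 40.6, 23.6 and 38.2 CPM (0.64 ± 0.21, adjusted p 0.203).

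The genes of the cell cycle stood lower in the 23095 wildtypes by a smaller amount. Of 57 tested members 38 were lower without overlap and 1 was higher (14.6% and 16.4% of all tested genes), with a median of -0.33. edgeR called none (lowest adjusted p 0.143), 23 had an unadjusted p under 0.05, and DESeq2 called 1 lower. TOP2A, which untangles replicated DNA, was at 276.2 and 294.8 CPM in the 23095 wildtypes and at 403.1, 375.4 and 382.6 CPM in the 36433 wildtypes (-0.44 ± 0.15, adjusted p 0.206). KIF23, a motor protein of cytokinesis, was at 67.3 and 69.8 CPM against 93.3, 97.2 and 94.2 CPM (-0.47 ± 0.14, adjusted p 0.143). In mutants the median was -0.05, with 9 lower and 1 higher without overlap, beside 10.8% and 9.79% of all tested genes.

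Ordered by the list medians within single libraries, the 5 wildtypes ran from 23095 R1 through 23095 R2 to 36433 R3 for the muscle list (deviations from the wildtype mean of 0.57, 0.35 and 0.01 on the log2 scale), with 36433 R1 at -0.28 and R2 at -0.63. The tailbud list began with the same 3 libraries from its low end (-0.46, -0.17 and 0.10), with 36433 R2 at 0.33 and R1 at 0.45, and so did the cell cycle list (-0.27, -0.11 and 0.03). Within line 36433 the muscle list therefore spanned 36433 R2 to R3 by about as much as R3 was from 23095 R1. Among mutants, 23095 R4 had both the lowest muscle deviation, -0.72, and the highest tailbud deviation, 0.75. The notochord genes, whose cells form the stiff rod of the embryo, had a median of 0.29. Beside 16.4% and 14.6% of all tested genes, 12 of the 26 members were higher and none lower without overlap. edgeR called none of them, 8 had an unadjusted p under 0.05, and DESeq2 called none.

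The posterior hox genes and their regulators, which pattern the end of the body axis, had a median of -0.24 (-0.14 without 23095 wildtype R1, -0.34 without 36433 wildtype R1). Beside 14.6% and 16.4% of all tested genes, 8 of the 26 members were lower and none higher without overlap. None was called by edgeR or DESeq2, and 4 had an unadjusted p under 0.05. hoxd13a was at 2.97 and 6.44 CPM in the 23095 wildtypes and at 7.946, 12.57 and 10.17 CPM in the 36433 wildtypes (-1.12 ± 0.38, adjusted p 0.207). gdf11, the signalling factor that sets the trunk to tail transition, was at 3.532 and 3.998 CPM against 6.344, 5.309 and 6.203 CPM (-0.66 ± 0.21, adjusted p 0.182). The anterior hox genes had a median of -0.10, which was 0.11 without 36433 wildtype R1. Mutant medians were 0.03 for the posterior and -0.03 for the anterior genes. Without 36433 wildtype R1, 21 of the 26 posterior genes were lower without overlap, beside 27.8% of all tested genes in that fit. In single libraries the list's deviation in 36433 wildtype R1 (-0.18) lay between those of the 23095 wildtypes (-0.23 and -0.05). Its omission therefore favours that count, which is given for no other omission.

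Genes of neurons and pigment cells had positive medians, 0.16 over 47 neuronal genes and 0.43 over 36 pigment genes, with 11 and 12 members higher (16.4% over all tested genes) and 3 and 1 lower (14.6%) without overlap. The neuronal median was 0.05 without 36433 wildtype R2 and 0.36 without 36433 wildtype R1. edgeR called none in either list, 5 and 6 had an unadjusted p under 0.05, and DESeq2 called 1 higher in each. nefmb, a neurofilament protein of maturing axons, was at 14.7 and 8.81 CPM against 3.14, 3.83 and 4.61 CPM (1.61 ± 0.43, adjusted p 0.125). PTS, an enzyme of pteridine synthesis, was at 36.3 and 29.6 CPM against 8.97, 15.4 and 17.5 CPM (1.24 ± 0.34, adjusted p 0.127). In both genes all 23095 wildtypes lay above all 36433 wildtypes, while the pigment median in mutants was -0.38. Without 23095 wildtype R1 the pigment median in wildtypes was 0.13.

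**Figure D4:**
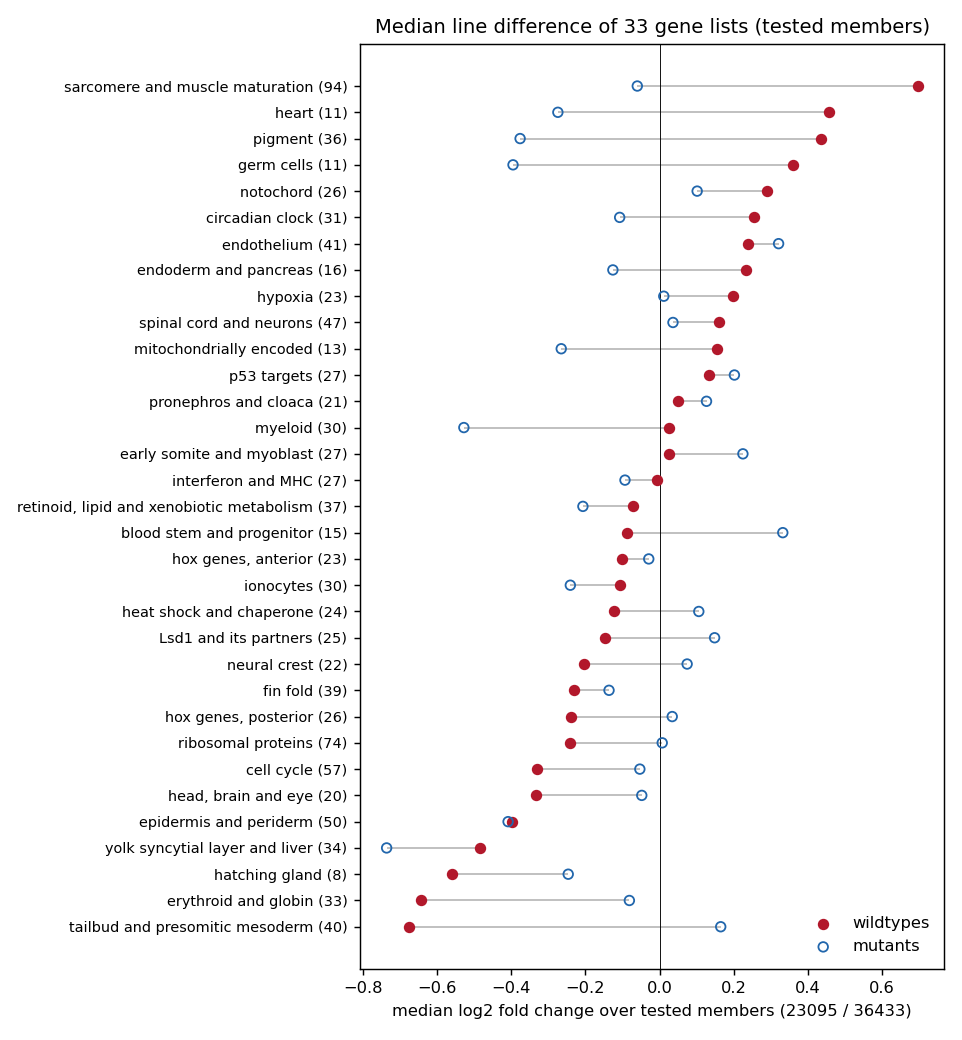
Median log2 fold change (line 23095 over line 36433) over the tested members of 33 gene lists, with the number of tested members in brackets. Filled red points are wildtypes, open blue points are mutants, and grey lines join the values of a list. The muscle list is highest (0.70) and the tailbud list lowest (-0.68) in wildtypes, both medians have the opposite sign in mutants, and this is so for 15 of the 33 lists.

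Some lists depended on 36433 wildtype R1. The genes of epidermis and periderm, the outer layers of the embryo, had a median of -0.40 (-0.20 without 36433 wildtype R2, -0.60 without 36433 wildtype R1). Of 50 members 8 were lower without overlap, near the 14.6% of all tested genes, and 2 were higher (16.4%). edgeR called none, 11 had an unadjusted p under 0.05, and DESeq2 called 1 lower. krt4, a keratin of the outer layer, was at 19350 and 17090 CPM in the 23095 wildtypes and at 14040, 32650 and 29670 CPM in the 36433 wildtypes (-0.48 ± 0.29, adjusted p 0.499). 36433 wildtype R1 thus lay below both 23095 wildtypes, and the other 2 lay above. Without that library 39 of the 50 were lower without overlap, beside 27.8% of all tested genes. In that fit 5 were called lower, beside 1.45% of all tested genes called in either direction. These 5 were krt4 (-0.77), the junction proteins JUP (-0.77) and PPL (-0.84), the tight junction gene cldne (-0.88) and anxa1c (-0.91). Overlap counts and member calls are given for that omission alone. For this list the library left out lay with the 23095 wildtypes, so its omission favours these counts, and they are no separate support. The list was also lower between mutants, with a median of -0.41 and 29 of 50 members lower and none higher without overlap, beside 10.8% of all tested genes.

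Ribosomal protein genes had a median of -0.24 (-0.12 without 23095 wildtype R1, -0.41 without 36433 wildtype R1), and only 1 of 74 did not overlap between wildtypes, beside 31.0% of all tested genes. RPL36 was at 304.2 and 358.0 CPM in the 23095 wildtypes and at 310.6, 529.8 and 585.7 CPM in the 36433 wildtypes (-0.52 ± 0.22, adjusted p 0.323). edgeR and DESeq2 called none, and 1 had an unadjusted p under 0.05. Without 36433 wildtype R1, 71 of the 74 were lower without overlap (27.8% of all tested genes). RPL11 and RPL36 were called in that fit (-0.65 and -0.75), beside 1.45% of all tested genes called in either direction. For the ribosomal list, and the yolk list that follows, the library left out also lay with the 23095 wildtypes, so its omission favours these counts. The mutant median was 0.01. Genes of the yolk syncytial layer and liver, which make blood proteins, had a median of -0.48 (-0.76 without 23095 wildtype R1, -0.18 without 23095 wildtype R2). Of 34 members 5 were lower without overlap, near the 14.6% of all tested genes, and 1 was higher, while 24 were lower without 36433 wildtype R1 (27.8% of all tested genes in that fit). Between mutants the median was -0.74, with 14 lower without overlap and 5 called lower, beside 10.8% and 0.637% of all tested genes. RBP4, the retinol carrier, was at 202.1 and 123.3 CPM against 196.7, 373.3 and 279.4 CPM (-0.80 ± 0.29, adjusted p 0.243). Tails were cut behind the yolk, and the summed level of that list was 16790 to 27530 CPM in the 23095 wildtypes and 20370 to 36320 CPM in the 36433 wildtypes. What part the position of the cut had in these results was not tested.

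Blood and vessel genes differed from each other. The erythroid and globin list had a median of -0.64, but it was -0.07 without 23095 wildtype R1 and -1.71 without 23095 wildtype R2. Of its 33 members 4 were lower and 3 higher without overlap, beside 14.6% and 16.4% of all tested genes. cahz, a carbonic anhydrase of red blood cells, was at 9.02 and 25.5 CPM in the 23095 wildtypes and at 52.3, 48.1 and 30.0 CPM in the 36433 wildtypes (-1.33 ± 0.38, adjusted p 0.141). SPTB, of the same list, went the other way without overlap. It was at 528.2 and 493.3 CPM against 377.7, 253.0 and 316.0 CPM (0.69 ± 0.20, adjusted p 0.145). The endothelial genes had a median of 0.24 with 22 of 41 higher and 3 lower without overlap (16.4% and 14.6% of all tested genes). In mutants the median was 0.32 with 19 higher and 1 lower without overlap, beside 9.79% and 10.8% of all tested genes. ERG, a transcription factor of endothelial identity, was at 4.48 and 4.27 CPM against 2.499, 1.882 and 2.046 CPM in wildtypes (1.03 ± 0.27, adjusted p 0.122) and was called between mutants (1.15, adjusted p 0.04). In wildtypes edgeR called no endothelial or erythroid gene, 9 and 6 had an unadjusted p under 0.05, and DESeq2 called none and 2 lower.

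**Figure D5:**
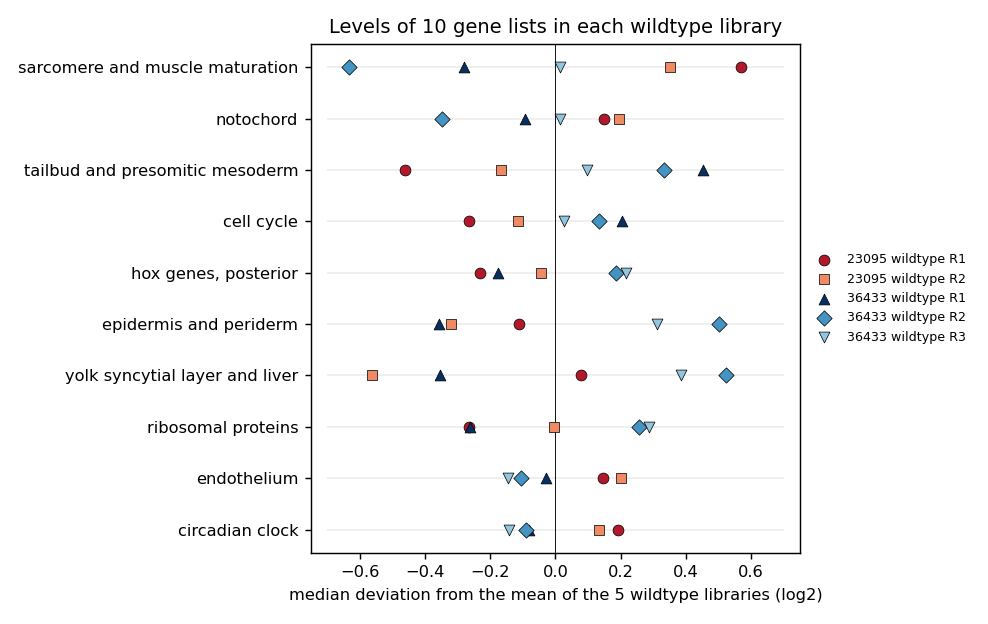
Median over list members of the deviation of log2 CPM from the mean of the 5 wildtype libraries, for 10 lists (rows) in each wildtype library (symbols). In the muscle, notochord, tailbud and cell cycle rows both 23095 wildtypes lie on one side of all 3 36433 wildtypes, whereas in the epidermis, yolk and ribosomal protein rows 36433 wildtype R1 (dark triangle) lies with the 23095 wildtypes.

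Genes of the circadian clock and of interferon signalling were compared in the same way, and what their values say about the time or state of the embryos was not tested. Of 31 genes of the circadian clock 14 were higher in the 23095 wildtypes and 1 lower without overlap (16.4% and 14.6% of all tested genes). The clock median was 0.25, and npas2 was the one called by edgeR. At an unadjusted p under 0.05 there were 9 clock genes, and DESeq2 called 2 higher. The call of npas2 did not hold in every fit that left out 1 wildtype library. nr1d2a, a nuclear receptor repressor of the clock, was at 9.02 and 6.57 CPM against 3.40, 2.76 and 3.39 CPM (1.29 ± 0.32, adjusted p 0.0968). In mutants the clock median was -0.11, with 3 higher and 5 lower without overlap, beside 9.79% and 10.8% of all tested genes. Among 27 genes of interferon signalling and antigen presentation none was called by edgeR, 5 had an unadjusted p under 0.05 and DESeq2 called 1 higher. That list's median was -0.008 (-0.06 to 0.24 without any single library), and 13 of the 27 had a positive fold change. Without overlap 7 members were higher and 4 lower, beside 16.4% and 14.6% of all tested genes. TAP1, a peptide transporter of antigen presentation, was at 1.77 and 2.17 CPM against 0.38, 0.47 and 0.45 CPM (2.16 ± 0.43, adjusted p 0.0528), and did not separate the mutants (0.50).

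The genes of Lsd1 and its partners had a median of -0.15 between wildtypes, with 4 of 25 higher and 5 lower without overlap, shares near the 16.4% and 14.6% of all tested genes. Without 36433 wildtype R1 the median was 0.02, with 10 higher and 6 lower without overlap (28.1% and 27.8% of all tested genes). None was called by edgeR or DESeq2, and 6 had an unadjusted p under 0.05. RCOR2, a corepressor that binds Lsd1, was at 30.7 and 36.6 CPM in the 23095 wildtypes and at 53.4, 40.0 and 42.7 CPM in the 36433 wildtypes (-0.43 ± 0.16, adjusted p 0.266). gfi1aa, a blood repressor that recruits Lsd1 and is also a target of it, was at 1.39 and 2.71 CPM against 0.77, 0.54 and 0.96 CPM (1.42 ± 0.52, adjusted p 0.249), and snai3, a zinc finger repressor, at 4.79 and 4.74 against 2.69, 2.69 and 3.01 CPM (0.77 ± 0.23, adjusted p 0.157). All 5 wildtypes lay below all 6 mutants in both gfi1aa and snai3, where the mutants held 4.38 to 17.3 and 12.4 to 32.9 CPM. The share of all tested genes that separate wildtypes from mutants in this way was not counted, and wildtypes were not tested against mutants here.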

How the data were processed

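RNA from 11 pools of tails was read with a stranded total RNA kit after removal of ribosomal RNA, as paired reads of 150 bases, per the labels' protocols. Per the submitters' processing notes, build GRCz11 and the tools cutadapt 1.16, STAR 2.7.2c and DESeq2 1.22.2 were used, in roles that are not stated. Neither the counting tool nor the gene annotation is named in the sources at hand. Raw counts for 23617 gene identifiers were deposited in 1 table, without normalization. The authors' deposited comparison tables, which give log2 fold changes and adjusted p-values per the file headers, were used only for counts set beside the results. The wildtype table spells the line number with an additional digit and was matched by its values (r = 0.853 across genes with the fold changes computed here).

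Symbols (21998 identifiers) came from a gene name table. They are in human style for 11491 identifiers and shared between identifiers for 3309. Among the shared symbols, ERBB4 and CYP27A1 have 3 identifiers each, and LOXL4, TMEM151B and CACNA1S have 2 each. Values given for these symbols belong to single identifiers and were not summed. With TMM scaling and filterByExpr (minimum count 10, minimum total 15), 20886 genes were tested. edgeR 4.0.16 (R 4.3.3) gave two-sided quasi-likelihood F-tests from glmQLFit, with the 11 libraries in 1 model of 4 group means (7 residual degrees of freedom). P-values were adjusted by Benjamini-Hochberg over all tested genes. CPM are edgeR's, and standard errors were derived from the F statistic. List deviations used log2(CPM + 0.1). DESeq2 1.42.0, other scalings and filters, a fit of wildtypes alone, a newer edgeR method (added after seeing the data) and leaving out each library were the alternatives. The script was tested on simulated data.

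The members and the 33 lists (1089 symbols, 1055 genes matched, 1002 tested) were chosen with earlier results of these data known. Named genes are KDM1A, the 12 largest differences per direction among called genes with a name, a mean log2 CPM of at least 1 and no overlap, the 5 per direction at 0 in one line, and the 3 lowest p-values per list. ACTC1, SLC24A4, strc, si:ch73-65n21.1, si:ch73-65n21.2, si:ch211-11c3.12, tas2r200.1, MBNL3, cacng6b, svilb, ank3b, TTN, krt4, actn2b and the list members named for fits without 36433 wildtype R1 were chosen after their values were seen. No sequence is printed. Genome positions entered only as RefSeq gene order, for the genes near kdm1a and for a search for called genes close to each other. That search covered the 34 called genes that could be placed and found no pair. It says nothing about the called genes that could not be placed, so whether called genes lie close together was not settled.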

Additional observations from a re-analysis of the deposited data

Results flagged for a closer look

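The line difference in wildtypes differed from that in mutants, by the test of the difference itself, in 2 genes of 20886 (0.00958%). For KDM1A the wildtype minus mutant line difference was -2.20 on the log2 scale (adjusted p 0.00407). Its line difference was -0.18 in wildtypes and 2.02 in mutants, where the 36433 mutants were the low group. For actn2b, an alpha-actinin of the sarcomere, it was -3.12 (adjusted p 0.0286). actn2b stood at 67.5 and 55.2 CPM in the 23095 wildtypes, at 47.0, 28.5 and 23.2 CPM in the 36433 wildtypes, at 52.9 to 77.9 CPM in the 23095 mutants and at 3.06 to 4.99 CPM in the 36433 mutants. Both calls were lost without 23095 wildtype R1 (adjusted p 0.12 for KDM1A and 0.252 for actn2b). That of actn2b was also lost without 23095 wildtype R2 (0.139), 36433 wildtype R2 (0.06), 23095 mutant R2 (0.0603) and each of the 36433 mutants R1, R2 and R3 (0.165, 0.146 and 0.057). The wildtypes did not overlap for actn2b (0.90 ± 0.27, adjusted p 0.157), and the mutants were far apart (4.02).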

How the results depend on the processing

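No single-gene result changed direction past the threshold under any alternative run. List medians have no threshold, and some changed sign when 1 library was left out. Without 36433 wildtype R1 the anterior hox median went from -0.10 to 0.11, and that of Lsd1 and its partners from -0.15 to 0.02. The 82 wildtype calls (53 higher, 29 lower) became 548 with DESeq2 (334 and 214), 132 with the newer edgeR method (87 and 45) and 52 with wildtypes fitted alone (32 higher). Library totals in place of TMM gave 51 lower. Leaving out 1 library gave 21 to 301 calls, 10 to 172 higher and 8 to 129 lower. The mutant comparison's 235 calls became 555 with DESeq2 and 65 to 177 without 1 library. Genes called in both numbered 130 with DESeq2 and 17 to 85 without 1 library. The wildtype minus mutant test called 58 genes with DESeq2 and 0 to 4 without 1 library, where 0 (without 23095 wildtype R1) had 796 genes at an unadjusted p under 0.05. The tailbud median ranged from -0.46 to -0.84 without 1 library. The wildtype difference of kdm1a was uncalled in every alternative run. Replicate numbers showed no pairing of wildtypes across lines (correlations of deviations -0.0802 and -0.00429 for the 2 shared numbers). With 2 wildtypes in line 23095 their deviations mirror each other, so this could not exclude pairing. Wildtypes and mutants of the same line and number were not compared in this way. A replicate block gave 85 wildtype calls, 64 mutant calls and none in the difference test (edgeR; 1006 genes at an unadjusted p under 0.05; adjusted p 0.0706 for KDM1A and 0.135 for actn2b). The cause of these changes was not tested. With 2 libraries in one group, genes at few counts are limited by depth.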

Other observations

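Of the 235 genes called between mutants of the 2 lines, 207 had the same sign between wildtypes and 197 were not called there. RefSeq order on a later assembly placed 14023 of the tested genes. Of the 50 placed genes nearest to kdm1a, 15 (30.0%) did not overlap between the wildtypes of the 2 lines, beside 31.0% of all tested genes.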
